A study of Homo sapiens with 6 samples.

Results

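The calpains and calpastatin were represented by 23 probe sets of 10 genes, among 54613 probe sets other than controls and 19775 genes measured on each array. The members were every probe set that the platform annotation paired with exactly 1 of the symbols CAPN1, CAPN2, CAPN5, CAPN6, CAPN7, CAPN8, CAPN9, CAPN13, CAPNS1 and CAST. The family was selected on a measured value, the difference of CAPN8 between the groups, which was among the largest falls after TIG1 knockdown, so the member differences between the groups are given as a description. How many members passed limma's threshold is given beside the share over all genes, and nothing is read from it. Of the 8 genes with several probe sets, 5 had probe sets that differed in sign, and every probe set is therefore accounted for.

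SUM149 cells, a human line of inflammatory breast cancer, were transfected either with an ON-TARGET Plus siRNA pool against TIG1 (siTIG1, 3 arrays) or with a siGENOME non-targeting pool (siControl, 3 arrays), each at 200 nmol/L with oligofectamine. TIG1 is the older name of RARRES1, a retinoid-induced gene. All cells grew in Ham's F-12 medium with 5% fetal bovine serum, insulin and hydrocortisone, and both groups came from 1 cell line. The target and the kind of siRNA pool differed together between the groups and cannot be told apart, no time after transfection is given, and the labels do not say whether replicates were separate cultures, so tests measure only the spread between these arrays.

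Calpains are calcium-dependent cysteine proteases that cut their substrates at a few sites and so alter them rather than degrade them. The classical enzymes pair a catalytic subunit, encoded by CAPN1 or CAPN2, with the small regulatory subunit encoded by CAPNS1, and calpastatin (CAST) is their dedicated protein inhibitor. In migrating cells they cut adhesion proteins such as talin and focal adhesion kinase. CAPN8 and CAPN9 are known from the stomach lining, where their products act as a complex.

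CAPN8 and CAPN2 are paralogs on chromosome 1 with 0 protein-coding genes of the RefSeq table (GRCh38.p14) between them, and they are transcribed away from each other. The 250 bases before each RefSeq start are shown because CAPN8 carried the largest difference of the family and its neighbour CAPN2 a small one. They read 5′ to 3′ on the gene's strand, and capitals mark TGANTCA, the core AP-1 motif, or AGGAAG, a motif of PEA3-type ETS factors, on either strand.
CAPN8, chr1:223665702-223665951, minus strand: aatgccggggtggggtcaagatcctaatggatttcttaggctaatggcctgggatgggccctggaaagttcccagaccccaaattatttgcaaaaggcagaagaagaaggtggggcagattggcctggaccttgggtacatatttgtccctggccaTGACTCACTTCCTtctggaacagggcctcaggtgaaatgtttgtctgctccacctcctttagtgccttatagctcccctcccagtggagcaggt
CAPN2 first start, chr1:223701347-223701596, plus strand: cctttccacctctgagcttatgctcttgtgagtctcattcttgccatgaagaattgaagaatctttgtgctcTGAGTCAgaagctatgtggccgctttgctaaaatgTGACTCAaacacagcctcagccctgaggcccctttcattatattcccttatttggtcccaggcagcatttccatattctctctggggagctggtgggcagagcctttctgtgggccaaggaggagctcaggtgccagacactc
CAPN2 second start, chr1:223712289-223712538, plus strand: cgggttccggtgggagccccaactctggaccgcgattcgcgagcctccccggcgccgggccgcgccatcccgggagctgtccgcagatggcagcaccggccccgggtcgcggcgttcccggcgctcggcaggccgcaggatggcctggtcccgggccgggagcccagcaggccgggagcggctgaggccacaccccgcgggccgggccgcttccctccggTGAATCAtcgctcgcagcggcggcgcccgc

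The CAPN8 window held 1 AP-1 match, TGACTCA, whose first base lay 94 bases before the start. It was followed with no base between by the reverse-strand AGGAAG match, CTTCCT. The first CAPN2 start had 2 AP-1 matches, TGAGTCA and TGACTCA, at 178 and 143 bases, and the second had 1, TGAATCA, at 30 bases. Neither CAPN2 window held AGGAAG. GC content was 52.4% before CAPN8, 50.0% before the first CAPN2 start and 78.8% before the second. Across 35116 RefSeq windows of this length, 6.57% held TGANTCA, 28.7% held AGGAAG, 2.06% held both and 0.0427% (15 windows) held both with no base between. Of the 10 member genes 9 had windows, 17 in all, some of them alternative starts of the same gene. Of these 17, 5 held TGANTCA, from 4 genes (CAPN2, CAPN6, CAPN8 and CAST), and 7 held AGGAAG. The CAPN6 window and a CAST window held both motifs, as did that of CAPN8. Neither CAPN6 nor CAST was called at the gene level with all arrays, and nothing is read from these counts. The motifs were chosen after the expression values were seen. Matches with no base between are the arrangement of the CAPN8 window, which is among the 15, so that share is no test of this window. A match is a stretch of letters, not a shown binding site.

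The arrays differed in ways that bear on every value below. Correlations across probe sets were 0.998 to 0.999 among siTIG1 arrays and 0.998 between siControl replicates 1 and 2, but 0.985 between siControl replicate 3 and each other control. With the siTIG1 arrays siControl replicates 1 and 2 correlated at 0.992 to 0.993, higher than with siControl replicate 3 of their own group. The targeted gene RARRES1 had a lower mean in siTIG1 cells on each of its 3 probe sets, by -1.28, -1.24 and -0.83 on the log2 scale, and none of these differences passed the test (limma adjusted p = 0.20, 0.23 and 0.27 over all probe sets). Part of each fall rested on siControl replicate 3, which read 12.58, 13.55 and 13.74 on these probe sets and was the highest array on each. On RARRES1 probe set 3, the signal was 12.69 on the array labelled siTIG1 replicate 1, against 12.65 and 12.61 on siControl replicates 1 and 2. That array read 10.72 on probe set 1, against 11.04 and 10.92 on these controls, and 11.72 on probe set 2, against 11.89 and 11.88. Directions below therefore include an array on which the knockdown was small on probe sets 1 and 2 and not visible on probe set 3. Epithelial markers were high, with a mean over 7 measured genes (KRT5, KRT8, KRT14, KRT18, KRT19, EPCAM and CDH1) of 12.71 to 12.75 on siTIG1 arrays and 12.27 to 12.57 on siControl arrays. Of these KRT19 rose by 1.00 ± 0.15 (SE, limma adjusted p = 0.016) and 6 did not pass, and the part of this shift in the results below was not tested. Marker lists of leukocytes, fibroblasts, endothelium and skeletal muscle averaged 7.18 to 7.71 on siTIG1 arrays and 7.07 to 7.76 on siControl arrays, and at most 1 gene in each lay above the median gene level of 8.69. In these 4 lists 0 genes passed limma's threshold and 1, of the leukocyte list, had an unadjusted p under 0.05. Over all genes 7.29% passed, and 4323 of 19775 had an unadjusted p under 0.05. Deposited values carry no detection call, so none of these genes is shown to be absent.

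**Figure D1:**
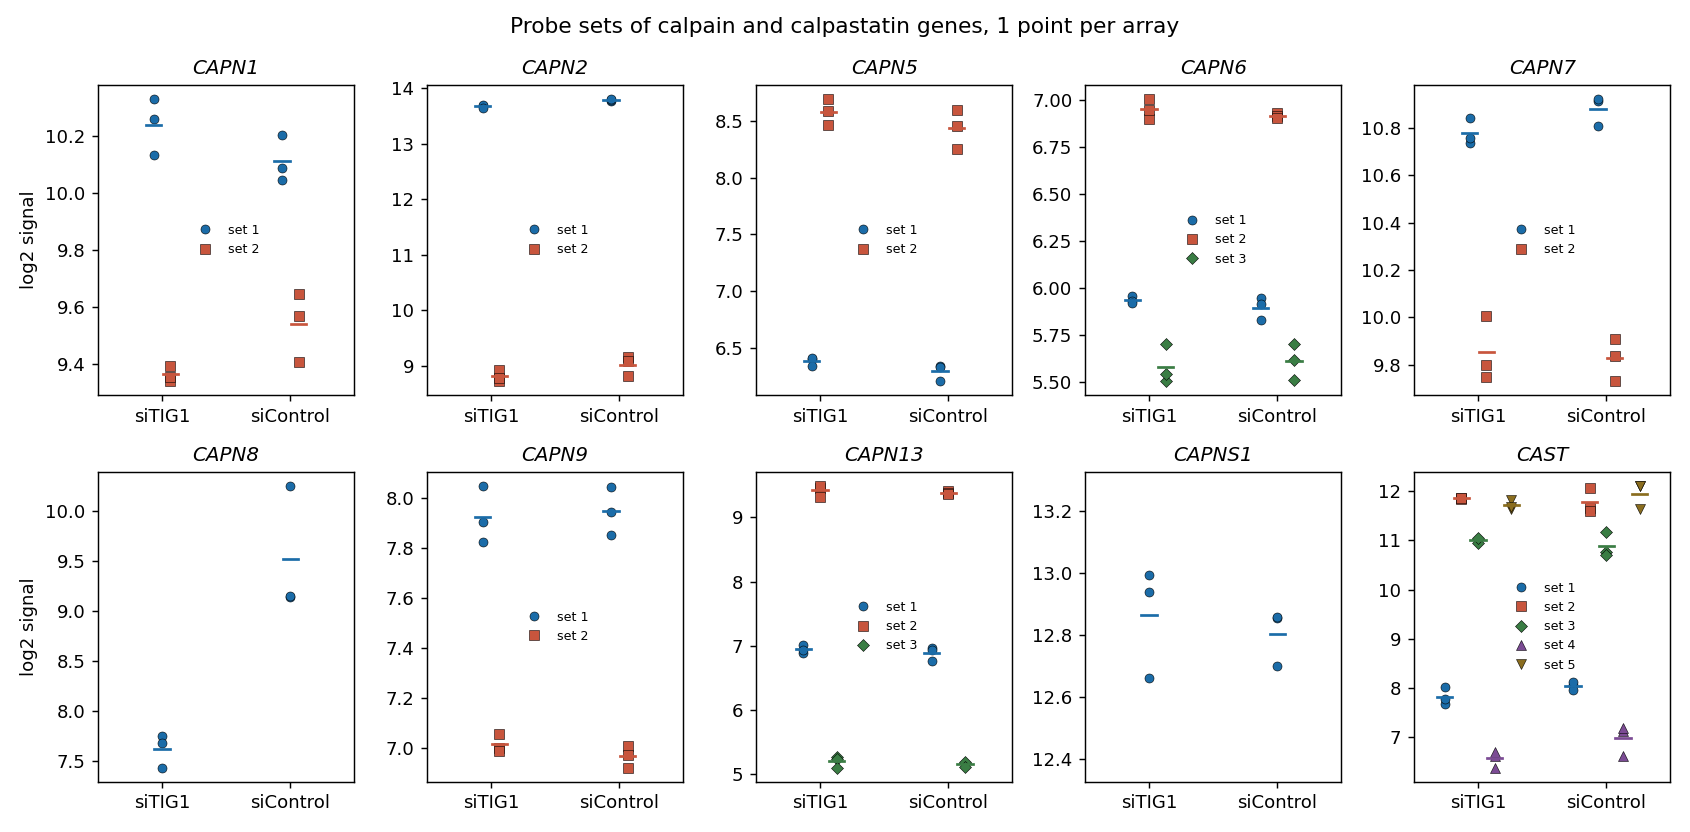
Log2 signal of each probe set of the 10 genes, with 1 point per array and a short line at the group mean of 3 arrays; siTIG1 is left of siControl, and each panel has its own log2 axis spanning at least 1 unit. CAPN8 is the gene whose groups lie far apart, at 7.43 to 7.74 in siTIG1 cells and 9.14 to 10.25 in siControl cells.

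CAPN8, the gene for which the family was chosen, had the largest difference of the 10 genes and was lower in siTIG1 cells. CAPN8, measured by 1 probe set, read 7.74, 7.43 and 7.68 on the log2 scale in siTIG1 replicates 1 to 3, against 9.14, 9.15 and 10.25 in siControl replicates 1 to 3. Every siTIG1 array lay below every control, and the array labelled siTIG1 replicate 1 was the highest of the siTIG1 arrays. The means were 7.62 ± 0.16 in siTIG1 cells and 9.52 ± 0.64 in siControl cells (SD, n = 3 each), a log2 difference of -1.90 ± 0.30 (SE), or 3.73-fold lower. This was the seventh lowest difference of all 19775 genes, next to COL13A1 (-1.91) and IL1A (-1.81). In RNA from bulk cells, fewer cells with the transcript and less of it per cell cannot be told apart. The siTIG1 level lies below the median gene level and is not shown to be above background, so the fold can be understated.

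The size of the CAPN8 difference depended on siControl replicate 3, whose signal exceeded the mean of the other controls by 1.11. Against siControl replicates 1 and 2 alone the difference was -1.53, or 2.89-fold lower, and the 3 siTIG1 arrays lay at -1.40, -1.72 and -1.47 from that mean. RARRES1 also had its highest signal on siControl replicate 3. With 1 array left out the log2 difference ran between -2.09 and -1.53. At the gene level CAPN8 passed limma's threshold without siControl replicate 1 or 3, but not without siControl replicate 2 or any single siTIG1 array.

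Since this contrast chose the family, the following counts are a description. At the gene level 1 of 10 members, CAPN8, was lower and 0 were higher at an adjusted p under 0.05 by limma, beside 7.29% of all genes called in either direction, 4.14% lower and 3.16% higher. Of the other 9 genes 0 had an unadjusted p under 0.05, beside 4323 of all 19775 genes. By probe set 1 of 23 was lower, beside 2.87% of all probe sets lower and 5.01% called in either direction. Of the 22 probe sets other than CAPN8, 2 had an unadjusted limma p under 0.05 (CAPN1 probe set 2 and CAST probe set 4), beside 10429 of all 54613. Without siControl replicate 3, 2 of the 10 genes were lower, CAPN8 and CAST. Of all 19775 genes in that fit 2936 were lower and 27.1% were called in either direction. By probe set 6 of the 23 were then called, 2 higher and 4 lower, beside 18.9% of all probe sets. CAST was called both ways, with probe sets 2 and 3 higher and probe sets 4 and 5 lower. The groups did not overlap on 3 of the 23 probe sets, with siTIG1 below in each, where 27.8% of all probe sets had groups apart and 13% had siTIG1 below. These were CAPN8, CAPN1 probe set 2 and CAPN2 probe set 1. The median log2 difference was 0.03 over the 23 probe sets and 0.01 over all probe sets. Leaving out CAPN8, the size of the difference ran from 0.02 to 0.41 with a median of 0.08, near the median size of 0.09 over all probe sets.

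The catalytic subunits of the classical calpains differed little between the groups. CAPN2, the catalytic subunit of m-calpain, read 13.69, 13.71 and 13.64 on probe set 1 in siTIG1 replicates 1 to 3, against 13.77, 13.79 and 13.81 in siControl replicates 1 to 3. The siTIG1 arrays lay below all controls, by a small step of -0.11 ± 0.05 (SE), or 1.08-fold. CAPN2 probe set 2 read 8.73, 8.93 and 8.78 in siTIG1 cells, against 9.15, 9.09 and 8.81 in siControl cells, with groups that overlapped through siControl replicate 3. Its difference was -0.20 ± 0.10 (SE) with all arrays and -0.31 without siControl replicate 3. Both CAPN2 probe sets therefore had the sign of CAPN8, at a much smaller size.

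CAPN1, the catalytic subunit of mu-calpain, gave probe sets of opposite sign. Probe set 1 read 10.13, 10.33 and 10.26 in siTIG1 cells, against 10.20, 10.09 and 10.05 in siControl cells, and the groups overlapped. Probe set 2 read 9.34, 9.35 and 9.39 in siTIG1 cells, against 9.41, 9.65 and 9.57 in siControl cells, with siTIG1 below on every array. The differences were 0.13 ± 0.07 and -0.18 ± 0.07 (SE), so CAPN1 has no single direction on these arrays. CAPNS1, the small subunit both enzymes need for stability, read 12.66, 12.94 and 12.99 in siTIG1 cells, against 12.70, 12.86 and 12.86 in siControl cells. Its groups overlapped fully, with a difference of 0.06 ± 0.10 (SE).

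Calpastatin, the inhibitor, had 5 probe sets, which fell into pairs that moved in opposite ways across arrays. Probe set 3 read 11.03, 10.95 and 11.05 in siTIG1 cells, against 10.76, 10.71 and 11.17 in siControl cells. Probe set 5, which has the highest mean among those not of the x_at kind and represents the gene, read 11.82, 11.64 and 11.68 in siTIG1 cells, against 12.10, 12.11 and 11.64 in siControl cells. On both, siControl replicates 1 and 2 stood on one side while siControl replicate 3 lay with or beyond the siTIG1 arrays. Probe set 2 followed probe set 3, at 11.84 to 11.86 in siTIG1 cells and at 11.66, 11.59 and 12.06 in siControl cells. Probe set 4 followed probe set 5, at 6.62, 6.71 and 6.38 in siTIG1 cells and at 7.13, 7.19 and 6.62 in siControl cells. Over the 6 arrays the Pearson correlation was 0.98 within the first pair and 0.89 within the second, and -0.89 to -0.79 between the pairs, as a description of 6 points that share these arrays.

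**Figure D2:**
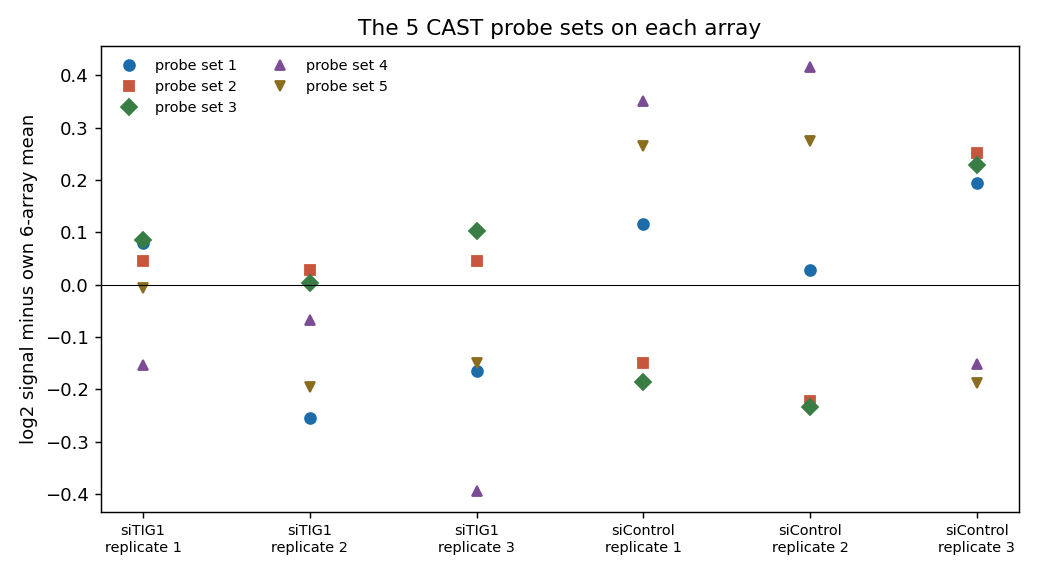
Log2 signal of the 5 CAST probe sets on each array, as the deviation from each probe set's own 6-array mean, with siTIG1 arrays left of siControl arrays. Probe sets 2 and 3 lie above probe sets 4 and 5 on all siTIG1 arrays and on siControl replicate 3, and below them on siControl replicates 1 and 2.

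With all arrays the differences were 0.08 ± 0.12 and 0.13 ± 0.13 (SE) for probe sets 2 and 3, and -0.41 ± 0.17 and -0.24 ± 0.14 (SE) for probe sets 4 and 5. Without siControl replicate 3 the differences were 0.23 and 0.28 for the first pair and -0.59 and -0.39 for the second. On siControl replicate 3 itself the first pair read 0.44 and 0.44 above the mean of the other controls, and probe sets 4 and 5 differed from it by -0.54 and -0.46. Probe set 1 read 8.01, 7.68 and 7.77 in siTIG1 cells, against 8.05, 7.96 and 8.13 in siControl cells, and stood outside both pairs. The annotation names the gene of each probe set and not the transcript, so the pairs were not assigned to calpastatin isoforms. As a measure of RNA integrity, the ACTB control signal at the 3′ end minus that at the 5′ end, higher in degraded RNA, was 2.14, 2.28 and 2.34 in siTIG1 cells and 2.73, 2.62 and 3.21 in siControl cells. The same measure for GAPDH was 0.471, 0.460 and 0.459 in siTIG1 cells and 0.476, 0.462 and 0.573 in siControl cells. Both measures were highest on siControl replicate 3, and the part of RNA integrity in the CAST values was not tested.

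Because of this split, a ratio of enzyme to inhibitor on the same array had no single answer. With CAST probe set 5, the CAPN1 minus CAST difference averaged -1.47 ± 0.20 in siTIG1 cells and -1.84 ± 0.22 in siControl cells (SD, n = 3 each), a shift of 0.36. The shift was 0.12 for CAPN2 minus CAST and 0.30 for CAPNS1 minus CAST. With CAST probe set 3 in place of probe set 5, a choice made after seeing the data, the shifts were -0.0009, -0.24 and -0.07. The same measure for CAPN8 minus CAPN2 averaged -6.06 ± 0.18 in siTIG1 cells and -4.27 ± 0.62 in siControl cells (SD, n = 3 each), a shift of -1.79 that shows unequal change of the 2 neighbours and not the level of either.

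The non-classical and tissue-restricted calpains gave small differences with overlapping groups on all 12 of their probe sets, beside 27.8% of all probe sets with groups apart. CAPN5, a calpain without the calcium-binding penta-EF-hand domain, read 8.69, 8.58 and 8.46 on probe set 2 in siTIG1 cells, against 8.25, 8.45 and 8.59 in siControl cells, a difference of 0.15 ± 0.10 (SE). CAPN7, which carries domains that bind the membrane-remodelling ESCRT machinery, differed by -0.10 ± 0.06 and 0.03 ± 0.09 (SE) on its 2 probe sets. CAPN9, the gastric partner of CAPN8, read 8.05, 7.82 and 7.90 on probe set 1 in siTIG1 cells, against 7.85, 8.04 and 7.94 in siControl cells. Its differences were -0.02 ± 0.08 and 0.05 ± 0.05 (SE), beside -1.90 for CAPN8. CAPN6, which lacks the catalytic cysteine, stayed between -0.03 and 0.04 on its 3 probe sets. CAPN13 stayed between 0.04 and 0.05 on its 3. Of the 23 member probe sets 11 had a mean above the median gene level, and those of CAPN5, CAPN6, CAPN8 and CAPN9 were all below it.

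CAPN8 had the widest spread over the siControl arrays among the 23 probe sets. Its SD there was 0.64, where those of the other 22 probe sets ran from 0.01 to 0.31 with a median of 0.09. In siTIG1 cells its SD of 0.16 lay within the range of the others, 0.01 to 0.18. Spreads of this size occurred outside the family too, with siControl SDs of 0.61 for FOSL1 and 0.64 to 0.96 for the RARRES1 probe sets, each with its highest signal on siControl replicate 3. No test was made of the spread, and siControl replicates 1 and 2 alone read 9.14 and 9.15.

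Of the 5 measured genes on either side of CAPN8 and CAPN2 on chromosome 1, 10 in all, 0 passed limma's threshold and 2 had an unadjusted p under 0.05. Over all genes 7.29% passed, and 4323 of 19775 had an unadjusted p under 0.05. On the side of CAPN8, CCDC185 differed by 0.10, SUSD4 by -0.15, TLR5 by 0.02, DISP1 by 0.21 and BROX by -0.004. On the side of CAPN2, TP53BP2 differed by -0.08, GTF2IP20 by -0.05, SEPTIN7P13 by -0.64, FBXO28 by 0.09 and DEGS1 by 0.31. The pseudogene SEPTIN7P13 was the largest of these (limma adjusted p = 0.12). It read 8.62, 8.56 and 8.71 in siTIG1 cells, against 8.96, 9.12 and 9.75 in siControl cells, with the highest value on siControl replicate 3, as for CAPN8.

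**Figure D3:**
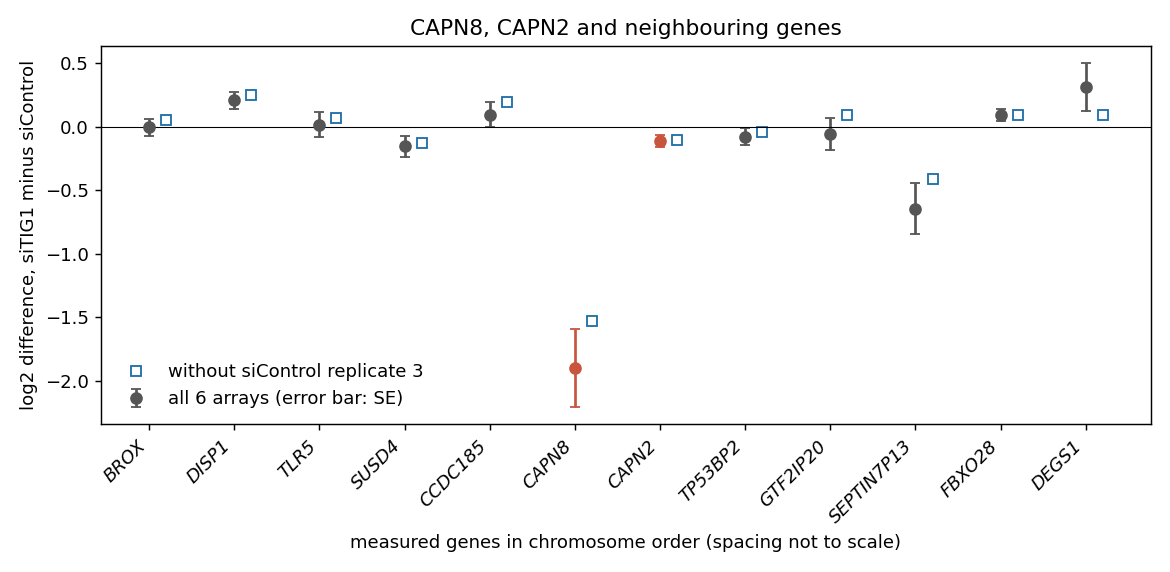
Log2 difference, siTIG1 minus siControl, for CAPN8, CAPN2 and the 5 measured genes on either side in RefSeq order; filled points use all 6 arrays with SE bars and open squares leave out siControl replicate 3. CAPN8 stands at -1.90 and at -1.53 without that array, while CAPN2 stands at -0.11 and -0.10.

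The genes whose pattern over the 6 arrays was most like that of CAPN8 were ETV5, SPRED2, FOSL1, MGLL and CNIH3, among 1337 genes that varied by at least 1 on the log2 scale. Their Pearson correlations with CAPN8 ran from 0.996 to 0.998, over 6 arrays that share the group difference and the shift of siControl replicate 3. FOSL1, which encodes an AP-1 subunit, read 10.06, 9.77 and 9.77 in siTIG1 cells, against 11.55, 11.46 and 12.56 in siControl cells. ETV5, a PEA3-type ETS factor, read 10.05, 9.96 and 10.07 in siTIG1 cells, against 11.06, 11.03 and 11.73 in siControl cells. SPRED2, an inhibitor of RAS to MAPK signalling, read 9.50, 9.37 and 9.40 in siTIG1 cells, against 10.05, 10.04 and 10.56 in siControl cells. All 5 genes were low on every siTIG1 array and highest on siControl replicate 3. MGLL, monoacylglycerol lipase, and CNIH3, a protein that accompanies AMPA receptors, differed by -0.87 ± 0.17 and -0.84 ± 0.12 (SE).

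**Figure D4:**
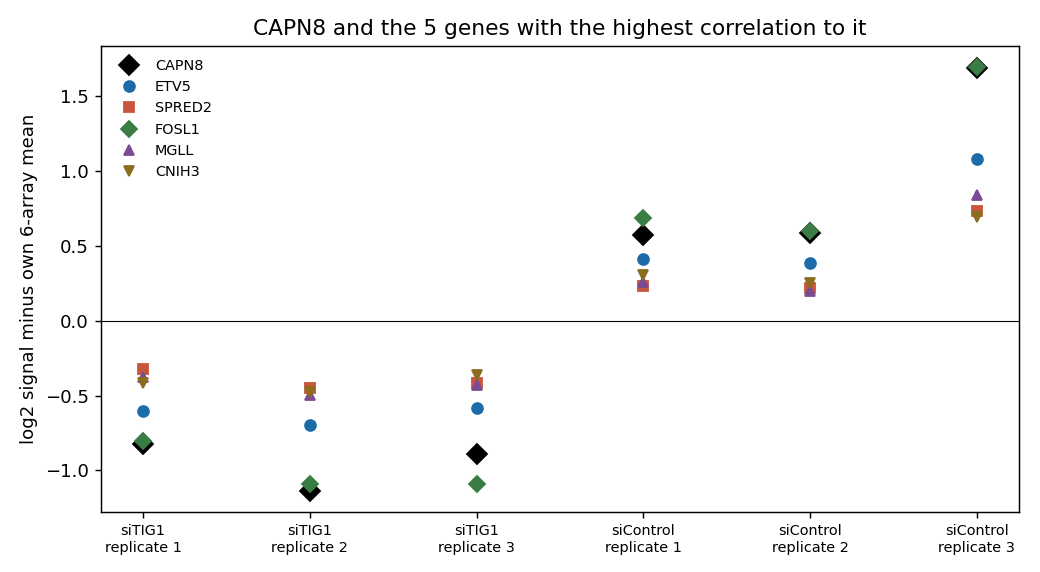
Log2 signal of CAPN8 (black diamonds) and the 5 genes with the highest correlation to it, as deviations from each gene's own 6-array mean, with siTIG1 arrays left of siControl arrays. All 6 genes lie below 0 on siTIG1 arrays, above 0 on control arrays and highest on siControl replicate 3, where CAPN8 and FOSL1 nearly coincide.

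Other members of the calpain family outside the chosen 10 gave 0 calls at the gene level in 8 measured genes (CAPN3, CAPN10, CAPN11, CAPN12, CAPN14, CAPN15, ADGB and CAPNS2), where 1 had an unadjusted p under 0.05, with a median log2 difference of 0.05 beside 0.02 over all genes. Over all genes 7.29% were called and 4323 of 19775 had an unadjusted p under 0.05. The largest differences of these other calpains were CAPN10 at -0.20 ± 0.08 (SE, limma adjusted p = 0.24) and CAPN11 at 0.18 ± 0.06 (SE, limma adjusted p = 0.16). Without siControl replicate 3, CAPN3 (0.26) and CAPN11 (0.20) were called higher, beside 27.1% of all genes called in either direction in that fit. CAPN15, named after its values were seen, had probe sets that disagreed. Its first read 7.19, 7.17 and 6.92 in siTIG1 cells, against 7.76, 7.71 and 7.98 in siControl cells, a difference of -0.72 ± 0.10 (SE) that passed limma's threshold (adjusted p = 0.016 over all probe sets). Its second, which represents the gene, read 8.76, 8.84 and 8.79 in siTIG1 cells, against 8.76, 8.75 and 8.72 in siControl cells. The second probe set did not show the fall of the first.

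Penta-EF-hand proteins share the calcium-binding fold of the classical calpain subunits, and 3 of the 4 measured relatives rose in siTIG1 cells, with a list median of 0.45, beside 3.16% of all genes called higher. GCA, grancalcin, read 8.47, 8.50 and 8.56 in siTIG1 cells, against 7.73, 7.83 and 7.73 in siControl cells, a rise of 0.75 ± 0.06 (SE, limma adjusted p = 0.0027). PDCD6, the adaptor ALG-2, rose by 0.51 ± 0.06 (SE, limma adjusted p = 0.0085). SRI, sorcin, rose by 0.39 ± 0.05 (SE, limma adjusted p = 0.0087), whereas PEF1 stood at -0.07. On the probe sets that represent the 3 risers the groups did not overlap, beside 27.8% of all probe sets with groups apart. On these probe sets siControl replicate 3 lay with the other controls. GCA passed with any 1 array left out, while PDCD6 and SRI lost their calls without siTIG1 replicate 2 (limma adjusted p = 0.063 and 0.065) or siTIG1 replicate 3 (0.060 and 0.061). GCA has 1 probe set, but the other SRI probe set differed by -0.08 and those of PDCD6 by 0.06 and -0.46. On the PDCD6 probe set at -0.46 the groups did not overlap either, with siTIG1 below. With each gene taken as the average of its probe sets, or as its most variable one, 1 of the 4 passed.

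**Figure D5:**
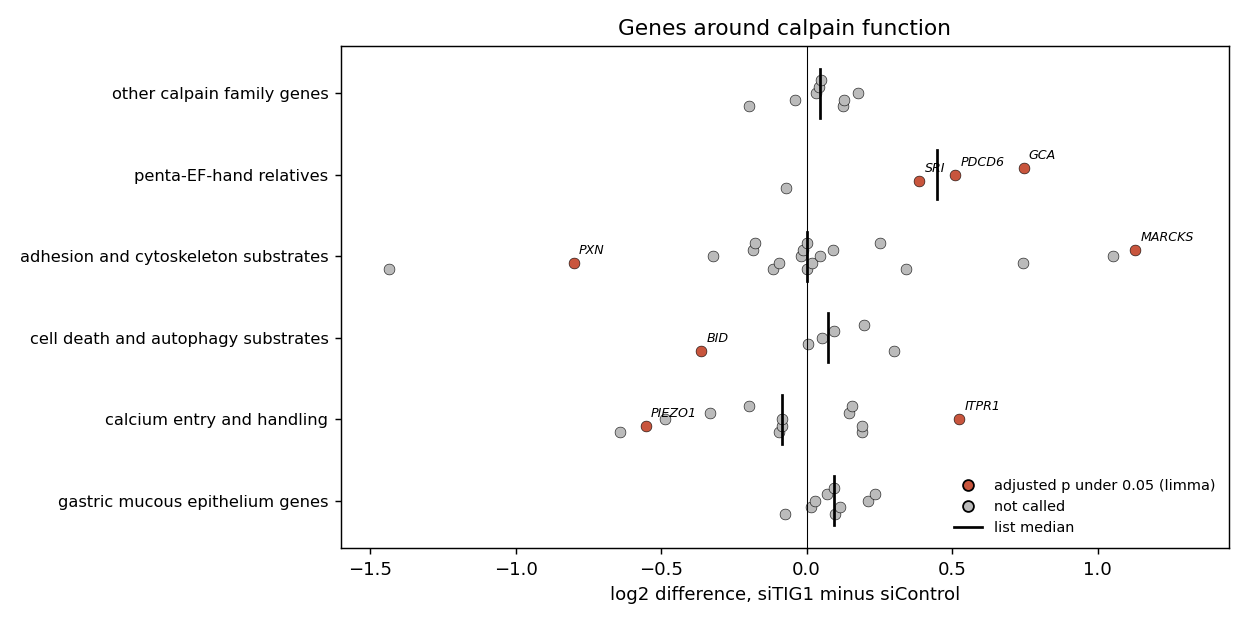
Log2 difference, siTIG1 minus siControl, for each measured gene of 6 lists around calpain function; filled red points passed limma's threshold, grey points did not, and black bars are list medians. The passing genes are GCA, PDCD6, SRI, MARCKS and ITPR1 to the right of 0 and PXN, BID and PIEZO1 to the left.

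Among 19 measured calpain substrates of adhesion and the cytoskeleton, 1 rose, 1 fell and 17 did not pass, with a median of 0.0007. These 2 calls in 19 stand beside 7.29% of all genes called. MARCKS, which tethers actin to the membrane, read 11.43, 11.67 and 11.73 in siTIG1 cells, against 10.67, 10.72 and 10.04 in siControl cells, a rise of 1.13 ± 0.19 (SE, limma adjusted p = 0.023). All 5 of its probe sets had this sign. PXN, the focal adhesion adaptor paxillin, read 10.90, 10.87 and 10.76 in siTIG1 cells, against 11.48, 11.40 and 12.05 in siControl cells, a fall of -0.80 ± 0.17 (SE, limma adjusted p = 0.046) that its second probe set did not show (0.01). Talin (TLN1, 0.02), focal adhesion kinase (PTK2, -0.32), alpha-II spectrin (SPTAN1, -0.09) and ezrin (EZR, -0.18) did not pass. Without siControl replicate 3, 4 rose and 5 fell, beside 27.1% of all genes called in that fit. Leaving out any other single array, the calls of MARCKS (limma adjusted p = 0.052 to 0.12) and PXN (0.068 to 0.19) were lost.

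Of 6 measured substrates in cell death and autophagy, BID, the BH3-only protein that calpain can cut, fell by -0.36 ± 0.06 (SE, limma adjusted p = 0.022) and 5 did not pass, beside the same share of all genes. BID read 9.61, 9.49 and 9.56 in siTIG1 cells, against 9.97, 9.94 and 9.84 in siControl cells. Its call was lost without any single array other than siControl replicate 3 (limma adjusted p = 0.070 to 0.11). The other BID probe sets differed by -0.11 and -0.06, with overlapping groups. With the probe sets of each gene averaged BID did not pass (limma adjusted p = 0.27). Among 13 measured genes of calcium entry and handling, 1 rose, 1 fell and 11 did not pass, with a median of -0.09, beside 7.29% of all genes called. PIEZO1, a mechanically gated calcium channel upstream of calpain in several cell types, read 11.05, 11.08 and 11.09 in siTIG1 cells, against 11.69, 11.61 and 11.57 in siControl cells, a fall of -0.55 ± 0.05 (SE, limma adjusted p = 0.0047). ITPR1, a calcium release channel of the endoplasmic reticulum, rose by 0.52 ± 0.08 (SE, limma adjusted p = 0.019). One of 3 PIEZO1 probe sets (0.14) and 1 of 5 ITPR1 probe sets (-0.01) had the opposite sign. PIEZO1 passed whichever array was left out, and the call of ITPR1 was lost without any single array other than siControl replicate 3 (limma adjusted p = 0.051 to 0.11). Store-operated entry genes did not pass, with ORAI1 at -0.20 and STIM1 at 0.19.

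Gastric mucous epithelium is the tissue in which CAPN8 and CAPN9 are best known. Of 9 measured genes of this tissue 0 were called by limma, beside 7.29% of all genes. The list median was 0.09. The largest were MUC6 at 0.24 ± 0.07 (SE, limma adjusted p = 0.12) and PGC at 0.21 ± 0.07 (SE, limma adjusted p = 0.15). Both of these, 2 of the 9, had an unadjusted p under 0.05, beside 4323 of all 19775 genes. MUC6 was called without siControl replicate 3, beside 27.1% of all genes in that fit. Of the list 2 genes, MUC1 and MUC5AC, lay above the median gene level, at differences of 0.03 and 0.10.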

How the data were processed

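Total RNA of the 6 samples was hybridised as biotin-labelled cRNA to Affymetrix HG-U133 Plus arrays, per the labels' protocols, and the authors deposited normalized log2 values by probe set. The submitters' processing notes name MAS5 and RMA without their roles, and no source used here says which produced them. The log base was taken as 2 from the range of the values. Array medians lay between 7.87 and 7.90, so the values were used as deposited, and such scaling hides any change common to most genes.

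Of 54675 probe sets, 62 controls were left out. Gene numbers were matched to RefSeq (GRCh38.p14) for current symbols, and 41091 probe sets had 1 symbol. Each gene was represented by its probe set with the highest mean, x_at probe sets only where there was no other. Genes and probe sets were each fitted on the whole table with limma 3.58.1 in R 4.3.3 (2-sided, no block, Benjamini-Hochberg, threshold 0.05), and the code was tested on simulated data. The SE of a member comes from the probe set fit and that of any other gene from the gene fit unless stated. The number of arrays limits the precision, and 0.1 is the smallest exact permutation p that 3 against 3 allows.

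Named were all members, up to 4 called genes of each list by p or otherwise the 2 largest, the neighbours of CAPN8 and CAPN2, and the 5 genes most correlated with CAPN8. Genes that complete a count or serve as background examples were named after their values were seen. Members and lists were chosen with earlier results of these data known. Alternatives covered the replicate block, normalization, a filter on dim features, eBayes, array weights, the probe set per gene and leaving out each array. Some genes of the lists are not reported here.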

Additional observations from a re-analysis of the deposited data

How the results depend on the processing

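No pairing of the arrays by replicate number was seen. Deviations of same-numbered arrays correlated at -0.043, -0.0099 and -0.0054, and 0 of 6 arrays correlated best with their own number. With siControl replicate 3 apart from the other controls, this measure could miss a pairing. With the replicate block, 108 genes were higher and 137 lower against 624 and 818 without it, and 215 and 263 probe sets against 1171 and 1566. No member was then called (0 genes and 0 probe sets lower), nor any gene of 3 lists (0 each for adhesion and cytoskeleton substrates, cell death and autophagy, calcium handling), and 1 penta-EF-hand relative was. With array weights 2392 genes were higher and 2717 lower, as were 3876 and 5049 probe sets. Of the members 2 genes were lower, as were 4 probe sets, and 1 probe set was higher. The list calls were then 2 other calpains, 9 adhesion, 2 cell death, 6 calcium and 1 gastric gene. Quantile normalization and trended robust eBayes each left 1 adhesion gene called. A filter on dim features left 0 member genes called, since the mean of CAPN8 lay below the filter. Averaging the probe sets of each gene gave 1 other calpain, 1 penta-EF-hand relative and 0 cell death genes. The most variable probe set gave 1, 1 and, for adhesion, 4. With CAST probe set 2 in place of probe set 5, added after seeing the data, the shifts of CAPN1, CAPN2 and CAPNS1 minus CAST were 0.048, -0.19 and -0.019, and with probe set 3 they were -0.0009, -0.24 and -0.068.

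With 1 array left out, genes called ran from 101 to 2421 higher and 116 to 2936 lower, and probe sets from 155 to 4297 and 165 to 6027, the highest of each without siControl replicate 3. Member genes called ran from 0 to 0 higher and 0 to 2 lower, and member probe sets from 0 to 2 higher and 0 to 4 lower. List calls ran from 0 to 2 for other calpains, 1 to 3 for penta-EF-hand relatives, 0 to 9 for adhesion, 0 to 3 for cell death, 1 to 6 for calcium and 0 to 1 for gastric genes. The shift of CAPN1 minus CAST ran from 0.27 to 0.48, CAPN2 minus CAST from 0.04 to 0.29, CAPNS1 minus CAST from 0.17 to 0.48 and CAPN8 minus CAPN2 from -1.97 to -1.43. Of the member differences, 397 of 404 values under alternatives moved by less than the replicate SD, and the other 7 came from another choice of probe set. The replicate block, eBayes setting and filter on dim features cannot change a difference, and their values are among the 397. Gene values also largely repeat those of the representing probe sets, so the count overstates how many values could move. Where a cause is not stated it was not tested.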
